A study of Mus musculus with 16 samples.

Results

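Ucp2, Ucp3, Slc25a4 and Slc25a5 are 4 genes for proteins of the inner mitochondrial membrane that, like Ucp1, let protons leak back into the matrix or exchange nucleotides across the membrane. They were followed here in brown adipose tissue (BAT) and gonadal white adipose tissue (gWAT) of mice in which the glycolytic enzyme gene Pgam1 was targeted in adipocytes. The rule that chose the genes uses their names and no measured value, though earlier results of these data were known. Each was represented by its brightest array probe among those whose RefSeq accession mapped to the gene, and they made up 4 of the 22911 genes named on the arrays. All 4 were well above background on all 16 arrays, so all 4 passed the filter on dim probes in each comparison.

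The study asked how loss of Pgam1 alters brown and white fat, and measured RNA on 1-colour Agilent arrays. The Adipo-Pgam1 KO mice carried Adipoq-Cre, which is expressed in adipocytes, together with floxed Pgam1 alleles. Their controls were littermates, labelled wild-type (WT), which according to the methods had both floxed alleles but no Cre. The animals were C57BL/6NCrSlc males of 16 weeks, except replicate 4 of the KO group in each tissue, at 14 weeks, and each of the groups BAT WT, BAT KO, gWAT WT and gWAT KO held 4 arrays. Other cell types of the fat pad keep the gene in this design, and a pad is a mixture of cells. In such bulk tissue, a change in the number of cells of a type and a change in RNA per cell cannot be told apart. The p-values describe the spread between these samples.

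All 4 proteins belong to the mitochondrial carrier family. Ucp1 is the proton channel of brown adipocytes, opened by fatty acids and closed by purine nucleotides, and it releases the energy of respiration as heat. Ucp2 is found in many tissues and is abundant in macrophages and other immune cells, where it exports C4 metabolites and limits the formation of reactive oxygen species. Ucp3 is best known from skeletal muscle and brown fat, is induced by fatty acids through PPAR receptors, and is linked to fatty acid oxidation. Slc25a4 (ANT1) and Slc25a5 (ANT2) are ADP/ATP carriers, which bring ADP into the matrix and send ATP out. ADP/ATP carriers also conduct protons in the presence of fatty acids, a leak considered the main basal leak in tissues without Ucp1. Slc25a4 is the form of heart, muscle and brown fat, and Slc25a5 that of most proliferating and epithelial cells.

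Ucp3 and Ucp2 are direct neighbours on chromosome 7 in the RefSeq annotation and are transcribed in the same direction, while Slc25a4 and Slc25a5 lie on chromosomes 8 and X. The 250 bases before the annotated start of each gene are shown because in BAT Ucp2 and Ucp3 rose and the ADP/ATP carrier genes did not. Their upstream sequences can thus be set side by side. All 4 genes were found in the RefSeq promoter table (build GRCm38.p6). The windows are chr7:100493108-100493357 on the plus strand for Ucp2, chr7:100472741-100472990 on the plus strand for Ucp3, chr8:46211063-46211312 on the minus strand for Slc25a4 and chrX:36795347-36795596 on the plus strand for Slc25a5. Each is written 5′ to 3′ along its gene, with matches to 5 short motifs in capitals, found on either strand.
Ucp2: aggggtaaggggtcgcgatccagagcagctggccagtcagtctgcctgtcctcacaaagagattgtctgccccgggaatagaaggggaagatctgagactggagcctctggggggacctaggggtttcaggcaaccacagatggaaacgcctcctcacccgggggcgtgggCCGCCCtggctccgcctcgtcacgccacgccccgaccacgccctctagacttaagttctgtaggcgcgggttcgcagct
Ucp3: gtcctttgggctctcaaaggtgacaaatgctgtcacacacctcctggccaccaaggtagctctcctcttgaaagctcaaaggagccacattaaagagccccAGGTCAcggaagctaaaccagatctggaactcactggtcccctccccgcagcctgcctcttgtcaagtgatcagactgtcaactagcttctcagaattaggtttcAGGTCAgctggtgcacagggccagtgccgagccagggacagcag
Slc25a4: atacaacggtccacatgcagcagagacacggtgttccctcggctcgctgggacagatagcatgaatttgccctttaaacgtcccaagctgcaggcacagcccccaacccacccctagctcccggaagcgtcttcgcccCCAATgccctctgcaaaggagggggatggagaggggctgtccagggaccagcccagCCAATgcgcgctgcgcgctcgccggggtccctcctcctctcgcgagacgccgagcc
Slc25a5: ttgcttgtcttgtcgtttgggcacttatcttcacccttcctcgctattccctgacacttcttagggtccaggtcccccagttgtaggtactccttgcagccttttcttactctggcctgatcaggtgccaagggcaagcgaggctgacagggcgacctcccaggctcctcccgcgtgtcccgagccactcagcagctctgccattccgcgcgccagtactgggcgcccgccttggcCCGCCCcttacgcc

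The capitals in Ucp3 mark AGGTCA, the half-site recognised by PPAR and other nuclear receptors, which began 149 and 44 bases before the start. Of the 32851 promoter windows of this length in the table, 14% held the half-site at least once and 1.36% held it 2 or more times. The window of Ucp2 held 1 GC box (GGGCGG, here on the opposite strand, 79 bases before the start) and that of Slc25a5 also held 1, at 14 bases. This motif was in 32.7% of all windows. Slc25a4 had 2 CCAAT boxes (CCAAT, at 112 and 56 bases), a motif found at least once in 33.8% of windows and 2 or more times in 10.1%. The TATA box core (TATAA, 22.8% of windows) and the E-box (CACGTG, 6.02%) matched in none of the 4, and no matches overlapped. A match describes letters in the window only.

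Levels are log2 signals relative to the 75th percentile of the same array, so 0 is a signal equal to that percentile and 1 unit is a 2-fold difference. Because probes differ in brightness, levels were compared between arrays and not between genes. The 75th percentile itself lay between 401 and 916 intensity units, with 49.99% to 62.21% of probes well above background and no saturated spot. It was 401 to 451 in BAT WT and 650 to 916 in BAT KO, ranges that did not overlap. In gWAT the ranges met, at 570 to 855 in WT and 657 to 831 in KO. The arrays sat on 3 slides. BAT WT replicates 1 to 3 were on the first, BAT WT 4, all BAT KO and gWAT WT 1 to 3 on the second, and gWAT WT 4 with all gWAT KO on the third. The third slide was scanned on a different day from the first and second. Pgam1 itself fell in BAT, from 7.94 ± 0.11 (SD, n = 4) to 6.20 ± 0.17 (log2 difference -1.74, adjusted p = 1.11e-05, limma). In gWAT it went against the label, rising from 5.36 ± 0.29 to 6.31 ± 0.25 (log2 difference 0.95, adjusted p = 0.0139). A second Pgam1 probe moved likewise, by -1.65 in BAT and 1.02 in gWAT. Whether the probes lie in the deleted part of the gene is not given in the sources used here. The cause of the rise in gWAT was not tested. Directions in gWAT rest on the label, and the arrays are called those labelled KO.

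Cell type markers moved too. In BAT, 11 of 12 macrophage markers were higher in KO, with a median log2 difference of 2.83, and 8 of 9 adipocyte markers were lower, with a median of -1.11. In gWAT, 1 of 12 macrophage markers and none of the 9 adipocyte markers was higher, and 2 adipocyte markers were lower. Of the tested markers, 0 of 6 for endothelium were called in either tissue. For lymphocytes, 1 of 3 was higher in BAT and 0 of 3 were called in gWAT, and no epididymis marker passed the filter. Brown adipocyte markers were lower in BAT KO (8 of 10) and higher in gWAT labelled KO (5 of 7, with 1 lower). With slide in the fit these counts were 5 of 10 lower in BAT and 1 of 7 higher in gWAT.

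Ucp2 showed the largest change of the 4 genes, in BAT. The BAT WT arrays read 0.05, -0.05, 0.44 and 0.38, and the BAT KO arrays 2.57, 2.47, 2.61 and 2.55. Every KO array was thus above every control array, and the KO arrays lay close to each other. The log2 difference was 2.34 (SE 0.13, 95% confidence interval 2.05 to 2.64), or 5.08-fold higher in KO, with an adjusted p of 5.88e-06 (limma, Benjamini-Hochberg over all genes tested) and an exact two-sided permutation p of 0.0286, the smallest that 4 against 4 arrays can give. Of the 4 genes, 2 were called higher in BAT KO and 1 lower at adjusted p below 0.05, and 3 had groups that did not overlap. Of all 14280 genes tested in BAT, 27.5% were called higher and 34.0% lower, and 57.1% had groups that did not overlap. A second Ucp2 probe moved likewise, by 2.47.

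In gWAT the Ucp2 ranges met. The gWAT WT arrays read 1.12, 1.12, 1.34 and 1.98 and the arrays labelled gWAT KO 1.86, 1.83, 2.55 and 2.92. Control replicate 4 lay inside the range of the KO arrays. The difference of 0.90 (SE 0.29, interval 0.23 to 1.57) did not pass the threshold (adjusted p = 0.0655 in limma, unadjusted exact permutation p = 0.0857). It passed without gWAT WT replicate 4 (1.1, adjusted p = 0.0419), the only control array on the same slide as the KO arrays. On that slide alone the difference was 0.31. The second Ucp2 probe differed by 0.72 and its groups overlapped too.

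Ucp3, measured by 1 probe whose specificity was not examined, was higher in KO in both tissues. In BAT WT it read 1.88, 1.94, 1.54 and 1.74 and in BAT KO 2.88, 2.77, 2.76 and 2.84. The groups did not overlap and the KO arrays varied less than the controls. The log2 difference was 1.04 (SE 0.11), a 2.06-fold rise with an adjusted p of 7.42e-05 in limma. In gWAT WT the arrays read 1.25, 1.32, 1.59 and 1.92, against 2.25, 2.0, 2.65 and 2.85 in those labelled KO. All KO arrays were again above all controls, though by a small margin between control replicate 4 and KO replicate 2. The rise of 0.92 (SE 0.22), or 1.89-fold, passed at an adjusted p of 0.0273. In gWAT 2 of the 4 genes were called higher, each with groups that did not overlap, and 0 lower. Among the 14149 genes tested there, 9.99% were called higher and 7.85% lower, and 24.1% had groups that did not overlap. The call in gWAT was a close one: it was lost on leaving out 5 of the 8 arrays in turn (adjusted p up to 0.0767) and with slide in the fit (0.52, adjusted p = 0.461).

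**Figure D1:**
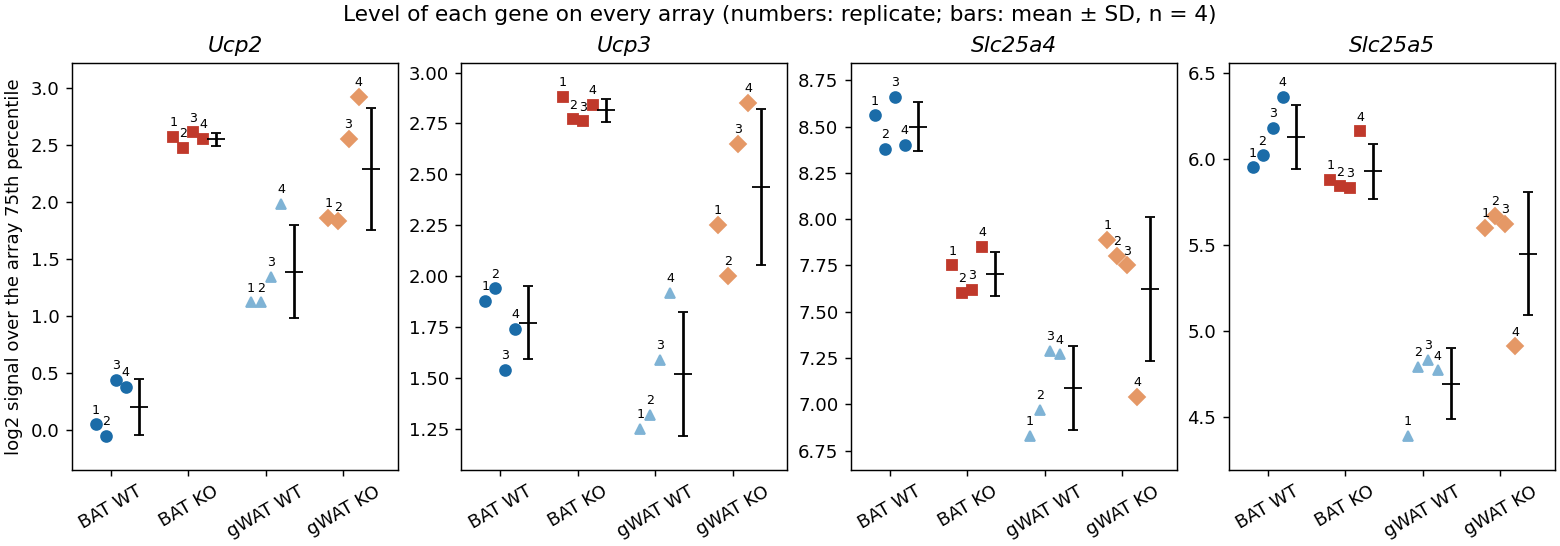
Level of Ucp2, Ucp3, Slc25a4 and Slc25a5 on every array, as log2 signal over the array's 75th percentile, with a separate vertical scale per gene. Points carry the replicate number and bars give the mean and SD of 4 arrays. Ucp2 in BAT rises from a mean of 0.21 to 2.55, while Slc25a4 in BAT falls from 8.50 to 7.70 and replicate 4 of gWAT KO lies below the rest of its group for both ADP/ATP carriers.

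Slc25a4, the ADP/ATP carrier of muscle and brown fat, moved the other way from Ucp2 and Ucp3 in BAT. The BAT WT arrays read 8.56, 8.38, 8.66 and 8.40 and the BAT KO arrays 7.75, 7.60, 7.62 and 7.85. No KO array reached the lowest control. The log2 difference was -0.80 (SE 0.11, adjusted p = 0.000263, limma), so the control level was 1.74-fold that of KO. A second probe gave -0.83. The size of the fall depended on how the arrays were scaled: it was -0.24 after quantile normalization (adjusted p = 0.0735), -0.25 with spike-in scaling (0.0701) and -0.23 with normexp and quantile (0.0702), each below 0 but no longer past the threshold.

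In gWAT, Slc25a4 read 6.83, 6.97, 7.29 and 7.27 in controls and 7.89, 7.80, 7.75 and 7.04 in the arrays labelled KO. The first 3 KO replicates were above all controls, and replicate 4 was among them. The difference of 0.53 (SE 0.21) was not past the threshold (adjusted p = 0.111, exact permutation p = 0.0857). Without KO replicate 4 it was 0.72 (adjusted p = 0.0178), and the second probe gave 0.72 with all arrays (adjusted p = 0.0326) and no overlap between groups. That replicate came from the younger KO animals, had the lowest Pgam1 level of its group (5.95 against 6.38 to 6.50) and the highest macrophage marker sum of all 16 arrays. The part of age and of cell content in its values was not tested.

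Slc25a5, the more widely expressed ADP/ATP carrier, is measured by 1 probe. BAT WT read 5.95, 6.02, 6.18 and 6.36 and BAT KO 5.88, 5.84, 5.83 and 6.16. The groups overlapped and the difference of -0.20 (interval -0.49 to 0.09, adjusted p = 0.202 in limma) was not called. Its sign turned with the scaling, from -0.79 relative to Actb and Rplp0 to 0.34 relative to the spike-ins. In gWAT the control arrays read 4.39, 4.79, 4.83 and 4.77 and those labelled KO 5.60, 5.67, 5.62 and 4.91. The groups did not overlap, and KO replicate 4 was again closest to the controls. The rise was 0.75 (SE 0.20, adjusted p = 0.0334), or 1.69-fold, and it was 0.93 (adjusted p = 0.00759) without that replicate. Leaving out any other single array moved the adjusted p above the threshold, to at most 0.0914.

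Between tissues, the ADP/ATP carriers were higher in BAT than in gWAT of control mice. The log2 difference was 1.41 for Slc25a4 (2.66-fold, adjusted p = 4.21e-06) and 1.43 for Slc25a5 (2.70-fold, adjusted p = 3.29e-06), in limma fitted to all 16 arrays. Ucp2 was lower in control BAT than in control gWAT, by -1.18 (adjusted p = 0.000516), and the groups of these 3 genes did not overlap. Ucp3 differed by 0.25 (adjusted p = 0.231, interval -0.14 to 0.64). Of the 14304 genes tested, 36.9% were called higher in control BAT and 30.7% lower, and 60.8% did not overlap between the tissues. On the slide that held control arrays of both tissues, the differences were -0.81 for Ucp2, 0.35 for Ucp3, 1.37 for Slc25a4 and 1.69 for Slc25a5.

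Among KO arrays, Slc25a4 differed by 0.08 (interval -0.28 to 0.45, adjusted p = 0.713), where its sign changed with scaling, with the second probe and without gWAT KO replicate 4 (-0.11). Ucp2 differed by 0.26 (interval -0.25 to 0.77, adjusted p = 0.392) and Ucp3 by 0.38 (interval -0.01 to 0.77, adjusted p = 0.103). Slc25a5 alone was called higher in BAT KO, by 0.48 (adjusted p = 0.0312), and its groups did not overlap. Over all 14449 genes tested, 23.3% were called higher and 22.9% lower, and 43.1% did not overlap. Without BAT KO replicate 4 this was 0.40 (adjusted p = 0.0944) and without gWAT KO replicate 4 0.30 (0.0849). Ucp3 passed without gWAT KO replicate 4 (0.51, adjusted p = 0.0292). All BAT KO arrays were on the second slide and all gWAT KO arrays on the third, so tissue and slide cannot be told apart in this comparison except through the control arrays.

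**Figure D2:**
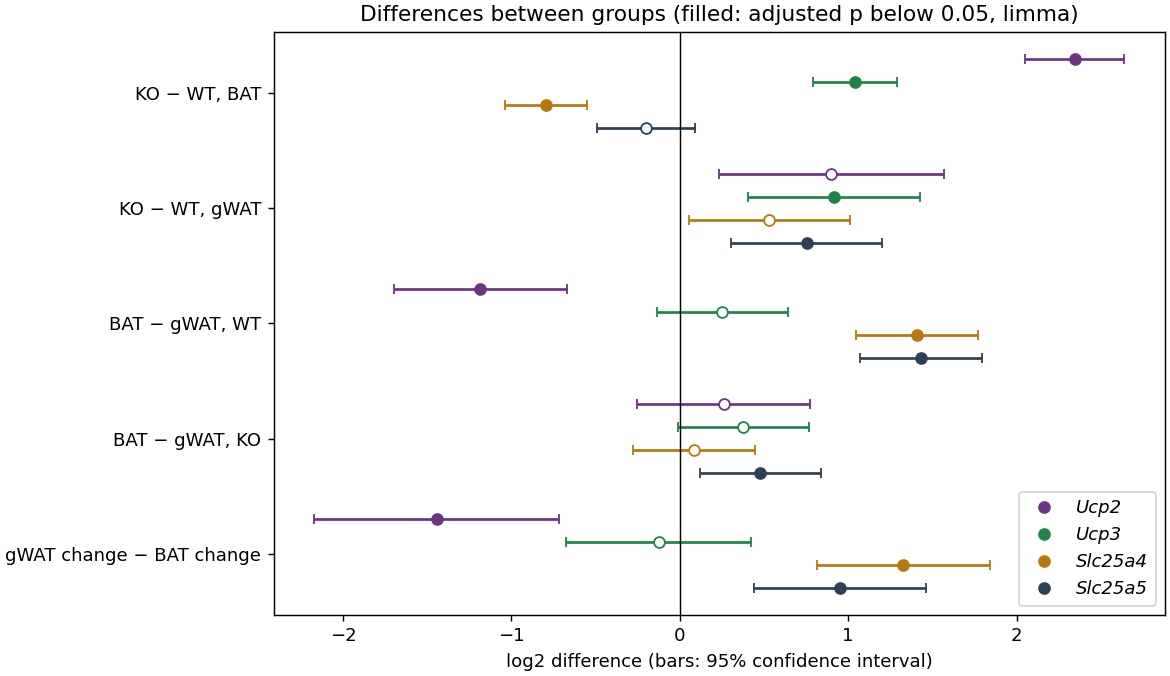
Log2 difference of each gene in the 5 comparisons, with the 95% confidence interval. Filled points passed an adjusted p of 0.05. Slc25a4 and Slc25a5 differ between tissues by 1.41 and 1.43 in controls and by 0.08 and 0.48 in KO, and Ucp2 goes from -1.18 to 0.26.

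In order of level, Ucp2 ran from BAT WT through gWAT WT and gWAT KO to BAT KO, and only the first step passed its test. Ucp3 ran from gWAT WT and BAT WT, which did not differ beyond their spread, to gWAT KO and BAT KO, which did not either. Slc25a4 was lowest in gWAT WT, then gWAT KO and BAT KO, and highest in BAT WT, with only the last step past its threshold. Slc25a5 had the same order, with the steps from gWAT WT to gWAT KO and on to BAT KO past the threshold and the step to BAT WT not. The step from BAT WT to gWAT KO in Ucp3 was not tested.

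The difference between the genotype changes of the tissues was tested directly, as the change in gWAT minus that in BAT. It was past the threshold for 3 of the 4 genes, at -1.44 (SE 0.34, adjusted p = 0.00302) for Ucp2, 1.33 (SE 0.24, adjusted p = 0.000501) for Slc25a4 and 0.95 (SE 0.24, adjusted p = 0.0045) for Slc25a5. Ucp2 therefore rose more in BAT, and the ADP/ATP carriers changed in a more positive direction in gWAT. For Ucp3 it was -0.12 (interval -0.67 to 0.43, adjusted p = 0.717), a value whose sign turned under Actb and Rplp0 scaling (0.41). Across all 14820 genes, 27.4% were called with a more positive change in gWAT and 21.0% with a more positive change in BAT. With slide in the fit, the Slc25a4 and Slc25a5 values were 1.04 (adjusted p = 0.0752) and 1.12 (adjusted p = 0.0543).

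Ucp1, the thermogenic uncoupling protein itself, fell in BAT from 9.89 ± 0.14 (SD, n = 4) to 8.62 ± 0.35, a log2 difference of -1.27 (adjusted p = 0.000308). The call was lost after quantile normalization (-0.38, adjusted p = 0.0681). In gWAT no control array showed it well above background, and 3 of the 4 arrays labelled KO did, at -0.15, -1.53 and -1.09, with replicate 4 at -3.54. Against the lowest signals well above background on the control arrays, the mean of the KO group, replicate 4 included, was 7.35-fold higher. Slc25a31, the testis form of the ADP/ATP carrier, was well above background on none of the 16 arrays. The other uncoupling-type carriers Slc25a14 (0.68, adjusted p = 0.000558) and Slc25a27 (0.93, adjusted p = 0.00333) rose in BAT, Slc25a30 differed by 0.30 (adjusted p = 0.211), and none of these 3 was called in gWAT.

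The rest of the mitochondrial carrier family gives the setting for the 4 genes. Of 49 other carriers listed, 48 were on the array. In BAT 42 were tested, of which 8 rose and 24 fell, with a median log2 difference of -0.54 beside -0.08 over all genes tested. The list median was -1.30 for phosphate and carboxylate carriers (1 rose and 5 fell of 7), -0.71 for nucleotide and coenzyme carriers (1 and 8 of 12), -0.37 for amino acid and glutathione carriers (3 and 7 of 13) and -0.15 for metal and other carriers (1 and 3 of 6). With spike-in scaling, which moved the median of all genes to 0.46, the carrier median was -0.0007. Among them 13 then rose and 16 fell.

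The largest rises among these carriers in BAT were in Slc25a24, an ATP-Mg/phosphate carrier (2.58, adjusted p = 3.03e-05), and Slc25a12, an aspartate/glutamate carrier (2.57, adjusted p = 1.83e-05). The next largest rise measured in both groups was in Slc25a45 (1.27, adjusted p = 0.000306). For Slc25a13, the other aspartate/glutamate carrier, only an approximate bound can be given. All 4 KO arrays, but 0 of the 4 controls, showed it well above background, so it passed the filter only through the KO group. Against the lowest signals well above background on the control arrays, it was 1.94-fold higher in KO. It is among the 8 carriers counted as rising, by a call made against controls at background. The largest falls were in Slc25a48 (-2.11, adjusted p = 4.3e-05), in Slc25a42, the carrier of coenzyme A (-2.03, adjusted p = 8.32e-06), and in Slc25a20, the carnitine/acylcarnitine carrier (-1.76, adjusted p = 3.56e-05). Ucp2 thus rose by nearly as much as the carriers with the largest rises.

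In gWAT, 40 of the carriers were tested, of which 9 rose and 1 fell, with a median of 0.35 beside 0.05 over all genes tested. Leaving out each array in turn, 4 to 14 rose, with 14 of 41 when gWAT KO replicate 4 was left out. The largest rises were in Slc25a1, the citrate carrier (2.03, adjusted p = 0.00619), Slc25a34 (2.01, adjusted p = 0.0107) and Slc25a39, the mitochondrial glutathione carrier (1.28, adjusted p = 0.00688). The 1 carrier that fell was Slc25a29, a carrier of basic amino acids (-1.12, adjusted p = 0.0265). With slide in the fit, 1 of the 40 was called.

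**Figure D3:**
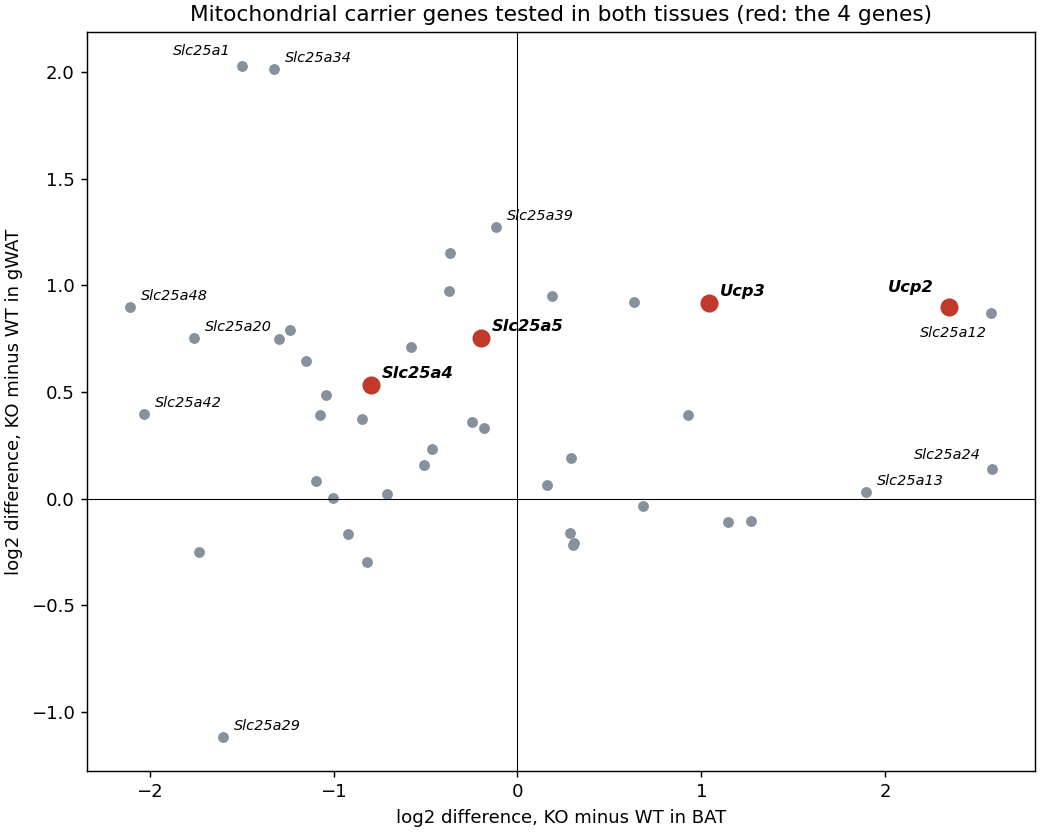
Log2 difference between KO and WT in BAT (horizontal) and gWAT (vertical) for the 44 carrier genes tested in both tissues, with Ucp2, Ucp3, Slc25a4 and Slc25a5 in red. Ucp2 and Ucp3 lie to the right, at 2.34 and 1.04 in BAT, and Slc25a4 and Slc25a5 to the left, at -0.80 and -0.20, while all 4 lie between 0.53 and 0.92 in gWAT. The Slc25a13 point in BAT is a fitted value, since its control arrays were at background.

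Partners of the ADP/ATP carrier comprised import factors of the TIM22 route, the outer membrane channels (VDACs), mitochondrial creatine kinases, hexokinases, cyclophilin D (Ppif) and the outer membrane protein Tspo. In BAT 1 of 13 tested rose and 7 fell, with a median of -0.42. The riser was Hk1 (1.1, adjusted p = 0.000318), the hexokinase that docks on the mitochondrial surface, and the largest falls were in Timm22 (-0.98, adjusted p = 8.41e-05) and Timm8b (-0.87, adjusted p = 0.000631). The median became 0.12 with spike-in scaling. In gWAT 6 of 13 rose and none fell, with a median of 0.53, led by Ppif (1.43, adjusted p = 0.0181) and Timm10 (1.21, adjusted p = 0.0222). Without gWAT KO replicate 4 the count was 8 of 13, and with slide in the fit 0.

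PPAR receptors and their coactivators control many genes of fatty acid oxidation, Ucp3 among them. Of 11 regulators listed, which also include thyroid hormone and estrogen-related receptors, 0 rose and 10 fell in BAT (median -0.96). The regulator not called was the coactivator Ppargc1a, at 0.63 (adjusted p = 0.286, limma). Ppara, the receptor most tied to oxidation, fell by 2.14 on the log2 scale (adjusted p = 3.24e-05), and Ppargc1b, a coactivator of mitochondrial genes, fell by 1.94 (adjusted p = 0.000119). Of 18 fatty acid responsive PPAR target genes, 2 rose and 14 fell (median -1.42). Cpt1a (1.13, adjusted p = 0.00144) and Plin2 (0.64, adjusted p = 0.00964) rose, as Ucp3 did, while Acot1 (-3.91, adjusted p = 5.93e-05) and Cpt1b, the muscle and brown fat form of the carnitine palmitoyltransferase (-1.70, adjusted p = 1.91e-05), fell. In BAT, Ucp3 thus moved with a minority of the list.

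In gWAT, 9 of the same 18 targets rose and 0 fell (median 0.70). Cpt1b rose by 4.23 (adjusted p = 0.00103) and Fabp3, a fatty acid binding protein of muscle and brown fat, by 2.81 (adjusted p = 0.0175). Of the 11 regulators, 0 rose and 1 fell, Thra, a thyroid hormone receptor (-0.52, adjusted p = 0.0379). Without gWAT KO replicate 4 the targets again gave 9 rises and 0 falls, and with slide in the fit 2 rises.

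Genes most alike in pattern were found by Pearson correlation over the 16 arrays among 12359 genes well above background on all of them, as a description in which the points share tissue and genotype. For Ucp2 they were Fcgr3 (r = 0.97), an Fc receptor, Abcg1 (0.97), a cholesterol exporter, and Slc11a1 (0.97), a metal transporter of phagocytes. For Ucp3 they were Aaas (0.91), Fcgr4 (0.90) and Wfs1 (0.89). Slc25a4 was most like Mmachc (0.99), Mdh2 (0.99), the malate dehydrogenase of the matrix, and Psma3 (0.99), a proteasome subunit. Slc25a5 was most like Vdac2 (0.98), a channel of the outer membrane, Plekha8 (0.98) and Nfu1 (0.97), an iron-sulphur cluster factor. Fcgr3 itself rose from a mean of -0.98 in BAT WT to 1.68 in BAT KO. Between the 4 genes, Ucp2 and Ucp3 gave r = 0.78 and Slc25a4 and Slc25a5 r = 0.88. With each group's mean removed, these were 0.74 and 0.80.

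Ucp2 followed the macrophage marker signal in the groups. The log2 sum of the 12 markers ran from 5.33 to 6.07 in BAT WT, from 7.58 to 8.12 in BAT KO, from 6.73 to 7.21 in gWAT WT and from 6.95 to 8.66 in gWAT labelled KO. All 12 were well above background on every array, among them the defining markers Adgre1 (mean 0.50 in BAT WT and 3.35 in BAT KO) and Cd68 (1.33 and 4.40), and none was at background in any group. The array with the highest sum, gWAT KO replicate 4, also had the highest Ucp2 value, 2.92. Within BAT KO the order differed, as the array with the highest sum (8.12) had the lowest Ucp2 value (2.47). The part of macrophage RNA in the Ucp2 and Ucp3 differences was not tested.

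**Figure D4:**
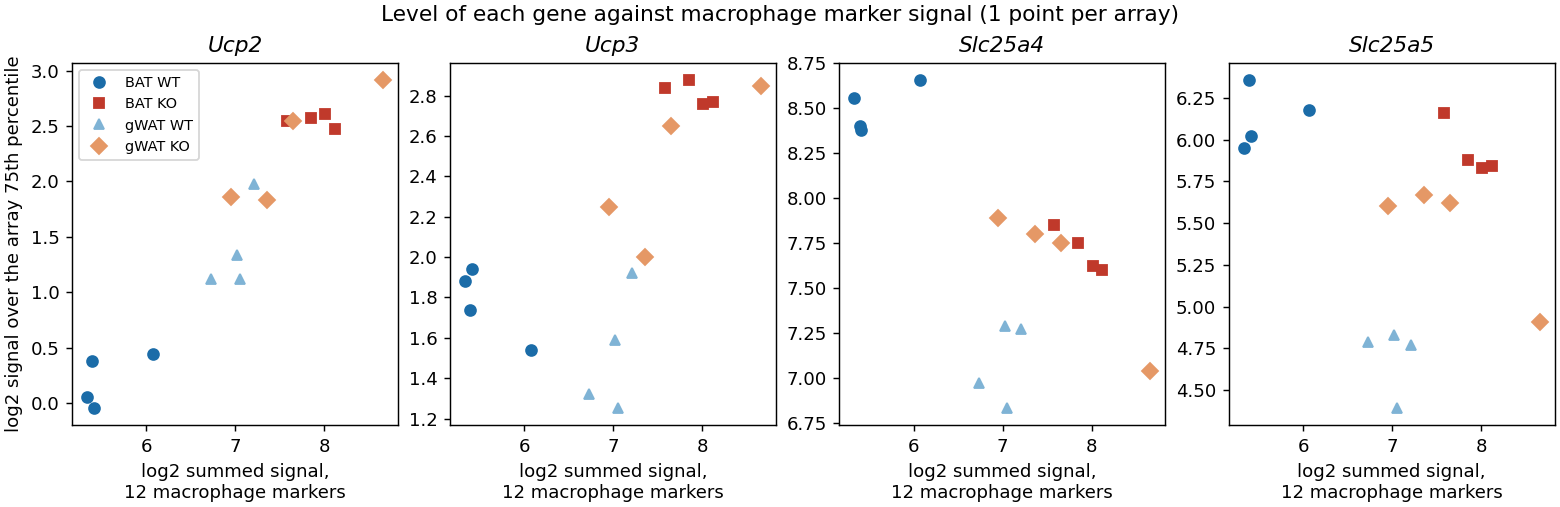
Level of each gene (vertical, log2 signal over the array's 75th percentile) against the log2 summed signal of 12 macrophage markers (horizontal), 1 point per array. BAT WT arrays lie at sums of 5.33 to 6.07 with Ucp2 at -0.05 to 0.44, and BAT KO arrays at 7.58 to 8.12 with Ucp2 at 2.47 to 2.61.

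Skeletal muscle, which expresses Ucp3 and Slc25a4, can adhere to dissected fat. Of its markers, 3 of 9 tested were higher and 1 lower in BAT, and 0 of 10 were higher and 1 lower in gWAT. Without BAT KO replicate 1 the BAT counts were 1 higher and 1 lower of 9, and with slide in the fit 0 and 0. The markers did not move as one in BAT: Myl1 fell from a mean of 5.41 to 3.37 (adjusted p = 0.00328), while Tnni2 (4.05, adjusted p = 0.0139), Tnnc2 (3.55, adjusted p = 0.0383) and Acta1 (3.11, adjusted p = 0.0291) rose. In BAT WT the summed signal came almost wholly from Myl1, as the means of the other markers were -1.71 or lower. The summed signal of the 14 markers spread widely in BAT KO, at 7.58, 3.03, 5.21 and 3.62 in replicates 1 to 4, beside 5.37 to 5.65 in BAT WT. All 14 markers were well above background on BAT KO replicates 1 and 3. The number was 10 and 8 on replicates 2 and 4, and 9 to 10 on BAT WT arrays. Ckm, Myh1, Myh4 and Actn3 were well above background on 2 of 4 BAT KO and 0 of 4 BAT WT arrays, and so were not tested there. On the BAT KO arrays Ucp3 read 2.76 to 2.88 and Slc25a4 7.60 to 7.85. With BAT KO replicate 1 left out and replicate 3 kept, the BAT difference in limma was 1.02 for Ucp3 (adjusted p = 0.000366) and -0.81 for Slc25a4 (adjusted p = 0.000909). In gWAT the sums were 4.15 to 5.47 in WT and 5.34 to 6.09 in the arrays labelled KO. There the defining marker Ckm was well above background on 0 of 8 arrays, while Acta1 averaged 3.28 in WT and 5.48 in KO. The part of muscle RNA in the differences of Ucp3 and Slc25a4 was not tested.

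The way the arrays were put on one scale moved the BAT differences. Spike-in, median, and Actb and Rplp0 scaling shift all genes of an array alike, so they moved the 4 genes by the same amount. Quantile and normexp scaling moved Slc25a4 more than Slc25a5. The calls of Ucp2 and Ucp3 held under each scaling, while those of Slc25a4 and Slc25a5 changed with it. Over all alternatives tried apart from leaving out arrays, the BAT difference ran from 1.75 to 2.89 for Ucp2 and from 0.45 to 1.58 for Ucp3, with adjusted p at most 0.00034 and 0.0149. Relative to the spike-ins the median of all genes moved to 0.46 in BAT and 0.49 in gWAT, and relative to Actb and Rplp0 to -0.67 in BAT. The share of higher genes among all those called was 44.8% in BAT, against 79.7% with the spike-ins and 17.7% with Actb and Rplp0, and 56% in gWAT, against 95.3% with the spike-ins and 71% with median centring. Slc25a4 in BAT ran from -1.39 to -0.23 and Slc25a5 from -0.79 to 0.34. In gWAT all 4 differences were above 0 under each scaling.

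**Figure D5:**
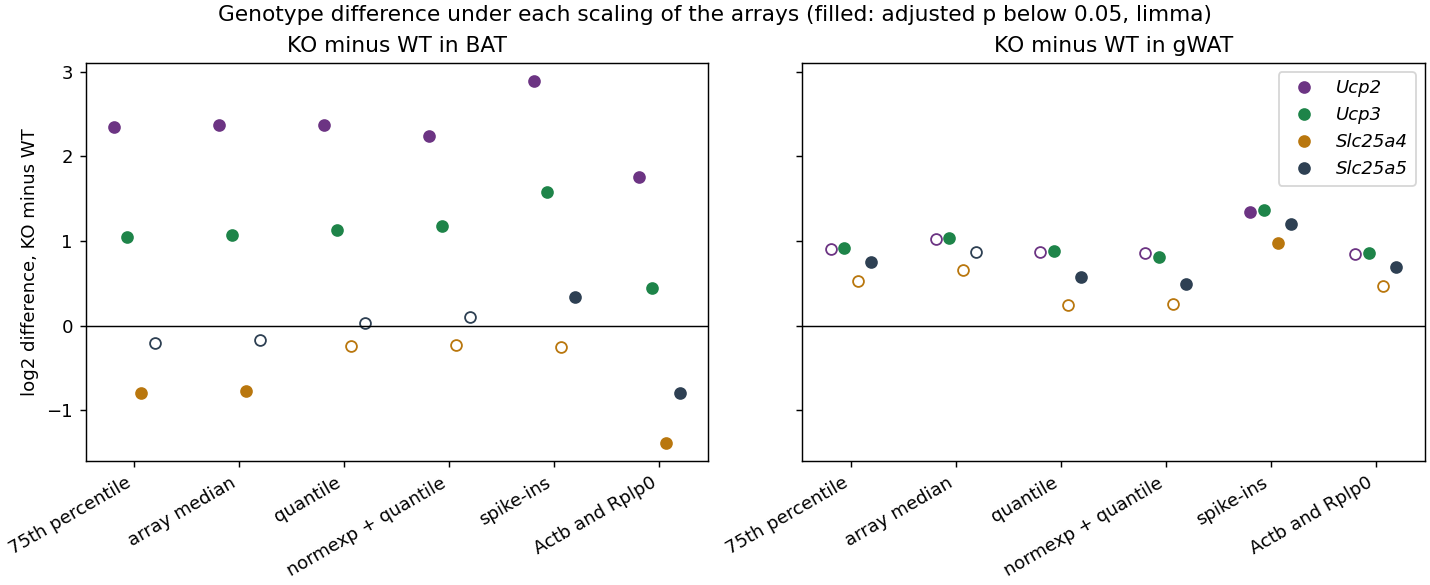
Log2 difference between KO and WT under 6 ways of scaling the arrays, in BAT (left) and gWAT (right). Filled points passed an adjusted p of 0.05. Ucp2 and Ucp3 are filled throughout in BAT, Slc25a4 is filled in 3 of 6, and Slc25a5 lies on either side of 0.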

How the data were processed

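Total RNA of BAT and gWAT was hybridised to 1-colour Agilent mouse arrays (16 arrays, 4 per group), and images were read with Agilent Feature Extraction 10.7.1.1, per the labels. The deposited scanner files hold background-corrected intensity per spot, as the authors deposited them without scaling between arrays. The deposited table of normalized intensities, which the authors made in GeneSpring, was put on the log2 scale and served as an alternative. Among values above the array's 75th percentile, it differed from the scanner values after 75th percentile scaling by at most 0.00504 (median per array).

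Spots of a probe were averaged, control spots were left out, and log2 intensity was set against each array's 75th percentile. Of 35886 probes with a RefSeq accession, 91.9% were named through a RefSeq gene table (GRCm38.p6), giving 22911 genes. The brightest probe stood for each gene. Testing required that probe to be flagged well above background throughout 1 or more of the groups compared. limma 3.58.1 (R 4.3.3) was used with Benjamini-Hochberg adjustment over all genes tested, on the 8 arrays of a tissue for genotype and on all 16 otherwise. The test was tested on simulated data first. Exact permutation tests were two-sided.

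The 4 genes are always named. Of each carrier list the 3 largest called changes in each direction are named, of other lists at most 2, and for each gene the 3 most correlated genes. The genes and lists were chosen with earlier results of these data known. Alternatives were array median, quantile, spike-in, and Actb and Rplp0 scaling, normexp (offset 50, on the median signal) with quantile normalization, no filter, the next probe, the mean of a gene's probes, slide and replicate blocks, the methods' t-test, the other choice of arrays in the fit, and leaving out each array. Lists without gWAT KO replicate 4 and BAT KO replicate 1 were added after seeing the data. Probe and protein sequences were not used here, so the specificity of the probes, that of Ucp3 included, was not examined. Neither was cross-hybridisation between Slc25a4, Slc25a5 and their pseudogenes. The number of arrays limits the precision. Figures were drawn with matplotlib 3.10.9.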

Additional observations from a re-analysis of the deposited data

Results flagged for a closer look

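The genotype change differed between the tissues for Ucp2, Slc25a4 and Slc25a5, as tested by the interaction term in limma. The change in gWAT minus that in BAT was -1.44 for Ucp2 (adjusted p = 0.00302), 1.33 for Slc25a4 (adjusted p = 0.000501) and 0.95 for Slc25a5 (adjusted p = 0.0045).

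Single arrays stood far from the other 3 of their group in 3 of the 16 gene and group combinations, where chance marks about 1 in 20. Replicate 4 of gWAT KO was low for Slc25a4, at 7.04, and for Slc25a5, at 4.91. Replicate 1 of gWAT WT was low for Slc25a5, at 4.39. The 2 low values of gWAT KO replicate 4 come from 1 array and are not independent.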

How the results depend on the processing

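Values are log2 differences with the adjusted p in parentheses. In BAT, Slc25a4 was no longer called with quantile (-0.24, 0.0735), spike-in (-0.25, 0.0701) or normexp scaling (-0.23, 0.0702). Slc25a5 reversed with quantile (0.037), normexp (0.10) and spike-in scaling (0.34, 0.0425), and was called lower relative to Actb and Rplp0 (-0.79, 0.001). Ucp2 and Ucp3 in BAT kept their direction and call under every alternative tried.

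In gWAT the calls were less stable. Ucp2 was called with spike-in scaling (1.34), with the other arrays in the fit (0.90, 0.013) and with the replicate block (0.90, 0.0301). Slc25a4 was called with spike-in scaling (0.97), the next probe (0.72) and the other arrays in the fit (0.53). Ucp3 lost its call with no filter (0.92, 0.0674), slide in the fit (0.52, 0.461) and the methods' t-test (0.92, 0.0617). Slc25a5 lost it with median centring (0.88, 0.0584), no filter (0.75, 0.0801), slide (0.68, 0.329), the replicate block (0.75, 0.0754) and the methods' t-test (0.75, 0.0653). Of all genes, 2525 were called in gWAT, against 1384 with median centring, 5086 with spike-in scaling, 1138 with no filter, 184 with slide, 1087 with the replicate block, 1618 with the methods' t-test and 3984 with the other arrays in the fit.

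Between control tissues, Ucp2 lost its call with slide in the fit (-0.81, 0.0718) and Ucp3 gained one relative to Actb and Rplp0 (0.59, 0.0166). Between KO tissues, Slc25a4 reversed with quantile (-0.039), spike-in (-0.048), Actb and Rplp0 (-0.12) and normexp scaling (-0.060), with the next probe (-0.035) and without gWAT KO replicate 4 (-0.11). Slc25a5 lost its call with median centring (0.42), Actb and Rplp0 (0.28), no filter (0.48), slide as a fixed (0.58) or random block (0.47), the replicate block (0.48) and only the KO arrays in the fit (0.48). Genes called fell from 6675 to 1743 with slide in the fit.

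The difference between tissues in the genotype change reversed for Ucp3 relative to Actb and Rplp0 (0.41), without gWAT WT replicate 4 (0.0094) and without gWAT KO replicate 2 (0.022). Slc25a4 lost its call with slide in the fit (1.04), and Slc25a5 with slide (1.12) and normexp (0.39). Genes called fell from 7162 to 3265 with slide. The share of higher genes among those called moved between control tissues from 54.6% to 42.1% with the spike-ins and 71% with Actb and Rplp0, between KO tissues from 50.4% to 32.7% and 28.5%, and in the interaction from 56.6% to 83.7% with Actb and Rplp0. The cause of these shifts was not tested.

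Leaving out each array in turn, the gWAT difference ran from 0.69 to 1.1 for Ucp2, 0.78 to 1.06 for Ucp3, 0.44 to 0.72 for Slc25a4 and 0.65 to 0.93 for Slc25a5, with 1080 to 3211 genes called. Between KO tissues it ran from 0.23 to 0.51 for Ucp3, -0.11 to 0.17 for Slc25a4 and 0.30 to 0.55 for Slc25a5. The interaction for Ucp3 ran from -0.26 to 0.02.

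Arrays of the same replicate number had correlations of their deviations between -0.19 and 0.43, pairs of WT with KO included. Between BAT and gWAT they ran from -0.07 to 0.22 in WT and from -0.19 to 0.29 in KO. Not every same-numbered pair was above 0.1, so the samples were treated as sharing only a number. Such values cannot show whether BAT and gWAT of the same number came from the same animal. By the labels, KO replicate 4 was 14 weeks old in both tissues and all other samples 16 weeks. Comparisons across tissues took the samples as independent, which would not hold if animals were shared. In no pair of groups did every sample correlate best with its own number. The replicate block changed no other call of the 4 genes.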
